A study of Homo sapiens with 6 samples.

Results

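The genes described here are 10 transcription factors of the AP-1 and immediate early class, namely FOS, FOSB, FOSL1, FOSL2, JUN, JUNB, JUND, ATF3, MAFF and EGR1. All probe sets annotated with 1 of these symbols alone were taken, which gave 25 of 54675 probe sets on the array and 10 of 19775 genes. No probe set naming a member was shared with another gene in the annotation used. A probe set is a group of short oligonucleotides on an Affymetrix HG-U133 Plus 2 array that together report 1 transcript or a few related ones.

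The cells were WM-266.4, a line from a metastatic human melanoma, and the gene lowered was PIR, which encodes the nuclear iron-binding protein pirin. The siPIR group received a mixture of 4 siRNA duplexes against PIR, the siCTR group a mixture of 4 non-targeting duplexes, and the NO group went through transfection with the Oligofectamine reagent and no oligonucleotide. Each siRNA dose was 200 pmol in serum-free medium, and RNA was taken 72 h later in all 3 groups, with no added stimulus named in the labels. RNA of 3 extractions was mixed into 1 pool per group and hybridised to 2 arrays, so each group is 1 sample, its 2 arrays measure hybridisation error only, and no difference between groups has a biological replicate behind it. No p-value is therefore given. As the duplexes were mixed, the effect of a single one cannot be told apart from the rest.

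AP-1 is a family of dimers that bind DNA through a basic region next to a leucine zipper. JUN proteins pair with each other or with FOS proteins, while FOS proteins need a JUN partner, and the dimers bind the motif TGACTCA or, for many JUN and ATF pairs, TGACGTCA. FOS, FOSB, JUN, JUNB, ATF3, MAFF and EGR1 are immediate early genes, whose transcripts appear soon after serum, growth factors or stress and decay quickly, whereas FOSL1 and FOSL2 are usually switched on later and can stay on while MAP kinase signalling persists. In melanoma the MAP kinase pathway is often active through mutation, and AP-1 output is tied to invasion and to the loss of differentiated features.

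Promoter sequence is shown for the 5 members on which the results below turn most and for which a window was at hand, to let a reader see which binding motifs lie beside genes that differed in opposite directions. RefSeq windows of GRCh38.p14 from 250 bases before to 50 bases after the start matched 9 of the 10 genes (11 windows, with 2 starts each for ATF3 and MAFF). FOSL1 had no entry. The 250 bases before the start are printed 5′ to 3′ on the gene's strand, and capitals mark a motif match. FOS lies at chr14:75278578-75278827, plus strand, JUN at chr1:58784048-58784297, minus strand, JUND at chr19:18281623-18281872, minus strand, MAFF (the upstream start) at chr22:38201744-38201993, plus strand and EGR1 at chr5:138465229-138465478, plus strand.
FOS: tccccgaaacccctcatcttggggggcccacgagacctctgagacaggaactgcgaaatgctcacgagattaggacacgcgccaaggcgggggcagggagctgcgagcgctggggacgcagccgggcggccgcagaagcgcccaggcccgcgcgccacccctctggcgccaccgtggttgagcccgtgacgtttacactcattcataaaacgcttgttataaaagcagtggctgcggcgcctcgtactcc
JUN: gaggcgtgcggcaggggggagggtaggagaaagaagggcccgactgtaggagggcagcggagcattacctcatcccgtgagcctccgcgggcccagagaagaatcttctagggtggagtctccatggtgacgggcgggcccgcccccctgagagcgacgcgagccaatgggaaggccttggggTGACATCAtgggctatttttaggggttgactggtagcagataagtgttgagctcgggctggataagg
JUND: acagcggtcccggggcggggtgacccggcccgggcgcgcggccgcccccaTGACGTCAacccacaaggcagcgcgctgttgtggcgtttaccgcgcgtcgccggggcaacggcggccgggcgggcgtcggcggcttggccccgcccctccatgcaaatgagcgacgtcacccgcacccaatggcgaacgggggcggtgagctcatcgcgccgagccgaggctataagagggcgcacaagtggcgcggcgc
MAFF: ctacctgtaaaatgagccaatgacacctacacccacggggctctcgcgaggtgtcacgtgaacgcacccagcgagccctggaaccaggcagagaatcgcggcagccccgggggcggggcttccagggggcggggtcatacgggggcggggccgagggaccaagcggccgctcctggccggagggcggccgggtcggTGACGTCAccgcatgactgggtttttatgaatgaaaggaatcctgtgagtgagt
EGR1: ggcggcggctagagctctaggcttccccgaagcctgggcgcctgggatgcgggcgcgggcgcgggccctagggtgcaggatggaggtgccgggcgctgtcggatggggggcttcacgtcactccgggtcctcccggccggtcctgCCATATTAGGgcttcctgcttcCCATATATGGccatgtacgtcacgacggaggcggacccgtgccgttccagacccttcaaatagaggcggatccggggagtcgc

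Motifs were searched on both strands of the 300-base windows, and positions count from 1 at the first transcribed base and backwards from -1. TGACGTCA, bound by ATF and CREB factors and by many JUN dimers, was found in JUND at -200 to -193 and in MAFF at -54 to -47, and 1.85% of 35116 windows held it. The serum response element core, the CArG box, occurred in EGR1 at -105 to -96 and at -83 to -74, and in 1.29% of all windows. TGACTCA was found in FOSL2 at 5 to 11 and in 4.95% of windows. The EGR motifs GCGTGGGCG and GCGGGGGCG were in no member window, against 0.795% and 5.07% of all windows. TGACATCA and TTACGTCA, variants of the AP-1 and ATF sites, were added after the windows had been looked at. The first was in JUN at -67 to -60 and in ATF3 at -123 to -116 (2.61% of windows), and the second was in FOSB at -60 to -53 (0.416%). No match overlapped another. A match is a run of letters and was not shown to be bound, and the FOS window held none of these motifs. Sequence outside the 300-base windows was not searched, so a motif absent here may lie farther from the start.

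Signals were compared as log2(signal + 5.4), the added constant being the 10th percentile of all values, so differences of dim probe sets are understated. Each gene is represented by its brightest probe set, and 12922 genes counted as measured because 1 pool mean at least was above 70.2, the median of all values. The word bright is used for genes that passed 458.4, the 75th percentile, in some pool, and dim for the other measured genes. The rule for calling a gene between 2 pools asked for a log2 difference of 1 or more in size (2-fold) and for no overlap of their arrays. All 10 members were measured, 6 of them bright, but FOSB was measured only through its siPIR pool and so had to be higher there. Of the 25 probe sets, 23 were measured. Duplicate arrays differed by a median of 0.09 to 0.10 on the log2 scale for bright genes and by 0.29 to 0.35 for dim ones. The siPIR pool, common to both comparisons with controls, ties those comparisons together.

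PIR signals were 392 and 382 in siPIR, 13544 and 13180 in siCTR, and 13990 and 14153 in NO, which is 34.1-fold and 35.9-fold lower than in siCTR and NO. All 7 melanocyte lineage markers with a probe set of their own were measured and none was called in any comparison. Among markers of other cell types, 4 of 7 fibroblast, 1 of 6 keratinocyte, 2 of 5 leukocyte (CD14 and HBB) and 2 of 6 endothelial genes were measured. The fibroblast markers had a summed signal of 28912 to 30635 on the siPIR arrays and 15807 to 19238 on the control arrays, nearly all of it from COL1A2 and FAP, while COL3A1, DCN and PDGFRB were below the measured range. The dim markers COL1A1 (-0.09 from siCTR and 0.71 from NO) and LUM (-0.44 and -0.61) were measured too, so the measured fibroblast markers did not all run the same way. For ACTB, the ratio of 3′ to 5′ probe sets, which grows as RNA degrades, was 1.13 on both siPIR arrays against 1.23 to 1.27 on the control arrays. The leukocyte list, which included HBB, a globin gene rather than a leukocyte marker, summed to 440 to 461 on the siPIR arrays and 219 to 307 on the control arrays. CD14 was called higher than NO (1.64), and PTPRC was below the measured range. HBB gave 121.9 and 76.7 in siPIR, 103.4 and 33.7 in siCTR, and 127.1 and 29.6 in NO. The part of these in the results below was not tested.

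The members differed in both directions. FOS, MAFF and EGR1 were lower in the siPIR pool than in either control, and FOSL1, FOSL2, JUN, JUNB and JUND were higher, each with all arrays apart on the brightest probe set, but most differences were below 2-fold. For JUN the direction against NO held on 1 of 4 probe sets. Against siCTR, 1 of 10 members was called higher (FOSB) and 0 lower, beside 3.66% and 4.19% of all measured genes. Against NO, 0 were called higher and 1 lower (FOS), beside 3.61% and 5.36%. No member was called against both controls, where 1.51% of genes were higher and 3.17% lower. At a 1.5-fold size, 3 members were higher (FOSB, FOSL1 and JUN) and 2 lower (FOS and MAFF) than siCTR, beside 10.7% and 10.0% of genes. At that size 2 were higher (FOSL1 and JUND) and 2 lower (FOS and MAFF) than NO, beside 11.9% and 12.8%. Higher than both at 1.5-fold was FOSL1, and FOS and MAFF were lower, beside 6.42% and 7.55%.

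Separation of arrays at any size was common among all genes. From siCTR, 6 members were apart on the higher side and 3 on the lower, beside 36.8% and 29.7% of genes. From NO these were 5 and 3, beside 38.0% and 32.8%, and from both controls 5 and 3, beside 28.7% and 23.3%. By probe set, 1 of the 23 measured was called higher than siCTR and 0 lower (3.92% and 4.07% of all measured probe sets), and 2 higher and 1 lower than NO (3.63% and 5.96%). The probe set called against siCTR, that of FOSB, and 1 of the 2 called higher than NO, a FOSL2 probe set, were measured only through siPIR. The median log2 difference over the 10 members was 0.35 against siCTR and 0.36 against NO, with 0.05 and 0.03 over all measured genes. The value against NO was 0.12 as the mean over probe sets of each gene and 0.046 without _x_at and _s_at probe sets.

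**Figure D1:**
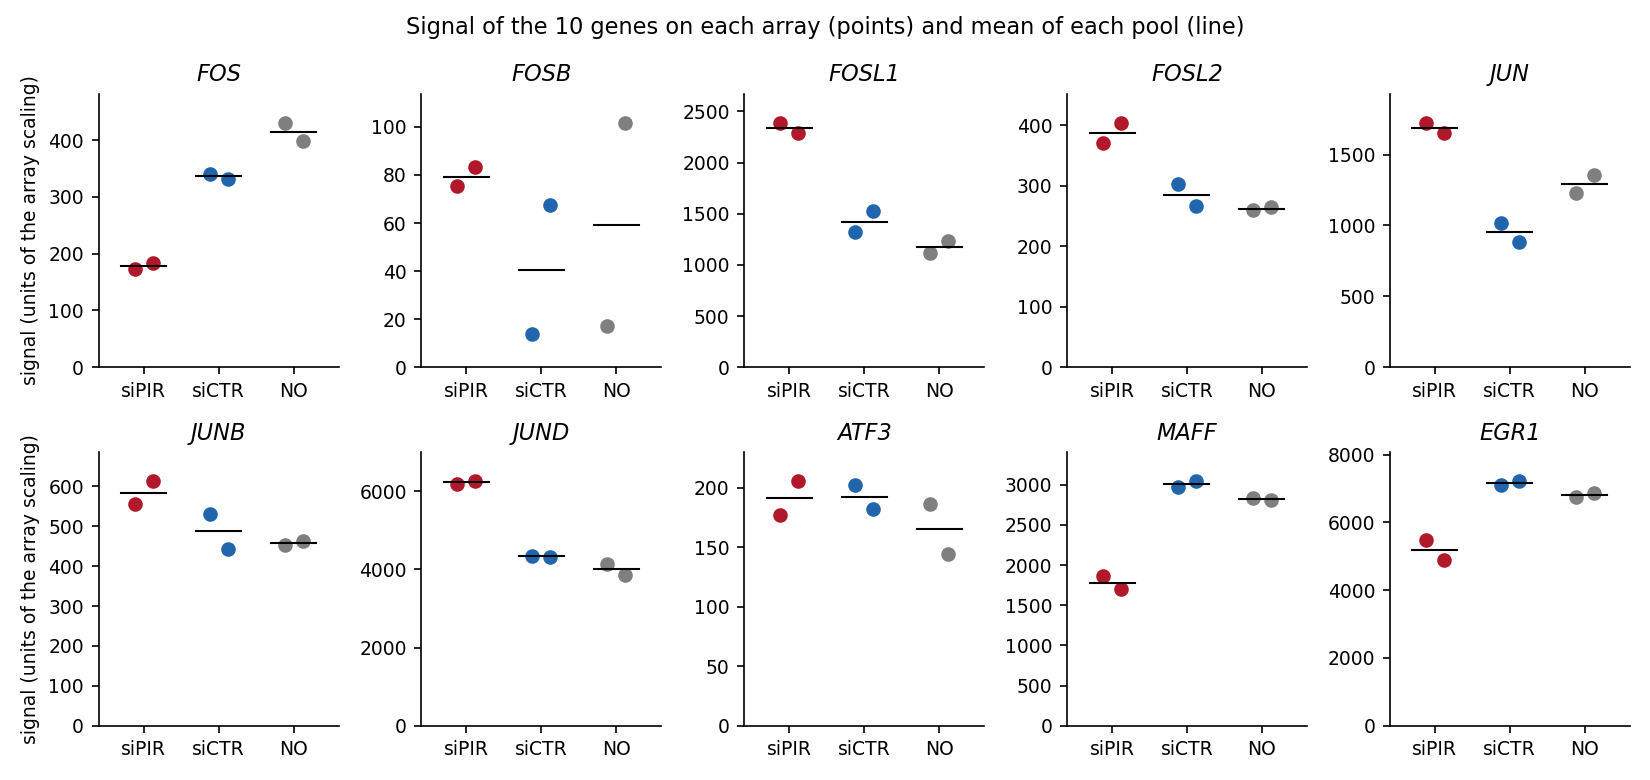
Signal of the brightest probe set of each gene (vertical axes from 0, in units of the array scaling, a separate scale for each gene) in the siPIR, siCTR and NO pools. Points are the 2 repeat arrays and lines the pool means. FOS, MAFF and EGR1 lie lower in siPIR than in both controls, FOSL1 and JUND lie higher, and the FOSB arrays of each control lie far apart (13.7 and 67.3 in siCTR, 17.0 and 101.7 in NO).

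FOS, the founding FOS protein and the most transient of the family, was read by probe set 209189_at, whose signals were 173.2 and 184.0 in siPIR, 340.3 and 331.9 in siCTR, and 430.5 and 398.2 in NO. The siPIR arrays were the lowest and the NO arrays the highest, with no overlap among the 3 pools. FOS was lower by a log2 difference of -0.89 from siCTR (ranging over the 4 possible array pairs from -0.95 to -0.83) and of -1.19 against NO (-1.29 to -1.09), a 2.28-fold difference that was called. It was also -0.30 lower in siCTR than in NO. Only 5.45% of measured genes had a lower difference from siCTR and 3.88% from NO. FOS was dim (all arrays below 458.4) and rests on 1 probe set. As RNA of many cells was measured together, less transcript in every cell and fewer cells with the transcript cannot be told apart.

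FOSL1 encodes FRA-1, a FOS family member that lacks the strong activation domain of FOS and is stabilised by ERK signalling. Probe set 204420_at gave 2388 and 2288 in siPIR, 1321 and 1522 in siCTR, and 1116 and 1229 in NO. Its order was thus the reverse of that of FOS, with siPIR highest, NO lowest and no overlap. The log2 difference was 0.72 against siCTR (0.59 to 0.85) and 0.99 against NO (0.89 to 1.09), just short of the 2-fold size. It passed that size against NO without siPIR replicate 2 (1.02), without NO replicate 2 (1.06) and under quantile normalization (1.01). Between the controls FOSL1 was 0.27 higher in siCTR.

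FOSL2, which encodes FRA-2, was read by 5 probe sets that did not all run the same way. The brightest, 225262_at, gave 369.6 and 403.6 in siPIR, 302.2 and 266.8 in siCTR, and 259.5 and 264.6 in NO, with siPIR above both controls and siCTR only just above NO. Its log2 differences were 0.44 against siCTR (0.29 to 0.59) and 0.55 against NO (0.47 to 0.63). Of the 5 probe sets, 4 were higher than siCTR and 3 higher than NO. Probe sets 218880_at (1.08, from 0.89 to 1.27 over array pairs) and 218881_s_at (1.49, from 0.33 to 2.65) were called higher than NO, the second being measured only through siPIR and so bound to be higher there, while 228188_at was lower than both, at -0.77 and -0.94. The siPIR arrays of 228188_at gave 51.7 and 79.1, with a pool mean below 70.2. It was measured only through the controls and so had to be lower in siPIR. On 218881_s_at the 2 arrays of each control lay far apart (84.6 and 28.6 in siCTR, 56.1 and 10.7 in NO).

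FOSB, another transient FOS protein known from neurons and bone, was close to the lower limit of the measured range. Probe set 202768_at gave 75.3 and 83.4 in siPIR, 13.7 and 67.3 in siCTR, and 17.0 and 101.7 in NO. The arrays of each control disagreed, and those of NO spanned the siPIR values. FOSB was called higher than siCTR at 1.18, but the array pairs ran from 0.15 to 2.22, and without siCTR replicate 1 the difference was 0.22. At 4 times the added constant it was 0.85 and no longer called. The difference from NO was 0.79 (-0.41 to 1.99) and became -0.34 without NO replicate 1.

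The JUN proteins are the partners on which FOS proteins depend. JUN signals from its brightest probe set were 1724 and 1654 in siPIR, 1015 and 886 in siCTR, and 1229 and 1356 in NO. Here siCTR was the lowest pool, siPIR the highest, and no pool overlapped another. JUN was 0.83 higher in siPIR than in siCTR (0.70 to 0.96), 0.39 higher than in NO (0.28 to 0.49), and 0.44 lower in siCTR than in NO. That probe set, 201464_x_at, carries a suffix that marks probes that may bind transcripts of other genes. All 4 JUN probe sets were higher than siCTR (0.57 to 0.83), but the other 3 were lower than NO, at -0.29 (201465_s_at), -0.29 (201466_s_at) and -0.25 (213281_at). All 4 were lower in siCTR than in NO, from -1.01 to -0.44. For 213281_at siCTR was the only pool below 70.2, so it had to be lowest there, and its arrays overlapped those of siPIR. The sign of the JUN difference from NO therefore depends on the probe set, and on 3 of the 4 the controls differed more from each other than siPIR did from either.

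JUND, the JUN protein usually present in resting cells, had 4 probe sets, of which the brightest, 203752_s_at, gave 6196 and 6252 in siPIR, 4344 and 4318 in siCTR, and 4147 and 3846 in NO. The siPIR arrays stood well above the rest, and siCTR was slightly above NO. Its log2 differences of 0.52 against siCTR (0.51 to 0.53) and 0.64 against NO (0.58 to 0.70) were 1.44-fold and 1.56-fold. All 4 JUND probe sets were higher than siCTR and 3 of 4 higher than NO, the exception being 229117_s_at, which was not measured (signals of 13.1 to 65.0). JUNB, a JUN protein that can restrain JUN activity, was read by 201473_at, which gave 555.7 and 612.6 in siPIR, 531.6 and 443.3 in siCTR, and 453.6 and 464.1 in NO. Its siPIR arrays were the highest, while those of siCTR spanned both NO arrays. The differences of 0.26 (0.06 to 0.46) and 0.34 (0.26 to 0.43) were small, and 69.8% of measured genes had a lower difference from siCTR, which puts JUNB inside the bulk of all genes.

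ATF3, a stress-induced repressor and partner of JUN proteins, did not separate the pools on its brightest probe set. That probe set, 202672_s_at, gave 176.9 and 205.3 in siPIR, 202.4 and 182.0 in siCTR, and 185.9 and 144.5 in NO, with overlap in every comparison. ATF3 differed from siCTR by -0.01 (-0.19 to 0.17) and from NO by 0.21 (-0.07 to 0.49). A second measured probe set, 1554980_a_at, was -0.14 from siCTR with overlapping arrays and -0.70 from NO (-0.92 to -0.48) with its arrays apart, so the probe sets gave opposite signs against NO. The third, 1554420_at, was not measured and ranged from 11 to 102.4 over the arrays.

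MAFF is a small MAF protein without an activation domain, which acts through the partners it binds. Its brightest probe set, 36711_at, gave 1859 and 1705 in siPIR, 2977 and 3043 in siCTR, and 2837 and 2815 in NO. Both siPIR arrays were far below the 4 control arrays, which lay close together. MAFF was lower by -0.76 against siCTR (-0.83 to -0.68) and by -0.67 against NO (-0.73 to -0.60), at 1.69-fold and 1.59-fold. The dimmer probe set 205193_at gave 439.8 and 509.9, 640.3 and 599.4, and 479.7 and 521.1 in the same order of pools. Its difference was -0.38 from siCTR and -0.08 from NO, where its arrays overlapped.

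EGR1, a zinc finger factor induced through serum response elements, gave 5476 and 4896 in siPIR, 7118 and 7212 in siCTR, and 6751 and 6875 in NO from its brightest probe set, 227404_s_at. The siPIR arrays were the lowest, and siCTR was slightly above NO. EGR1 was thus lower than siCTR by a log2 difference of -0.47 (-0.56 to -0.38), and than NO by one of -0.40 (-0.49 to -0.30). Probe set 201693_s_at gave -0.55 and -0.54, whereas 201694_s_at gave 0.14 and 0.26 with overlapping arrays. On 201694_s_at the second array of every pool was higher than the first (1759 against 1405 in siPIR, 1694 against 1200 in siCTR, 1591 against 1076 in NO).

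**Figure D2:**
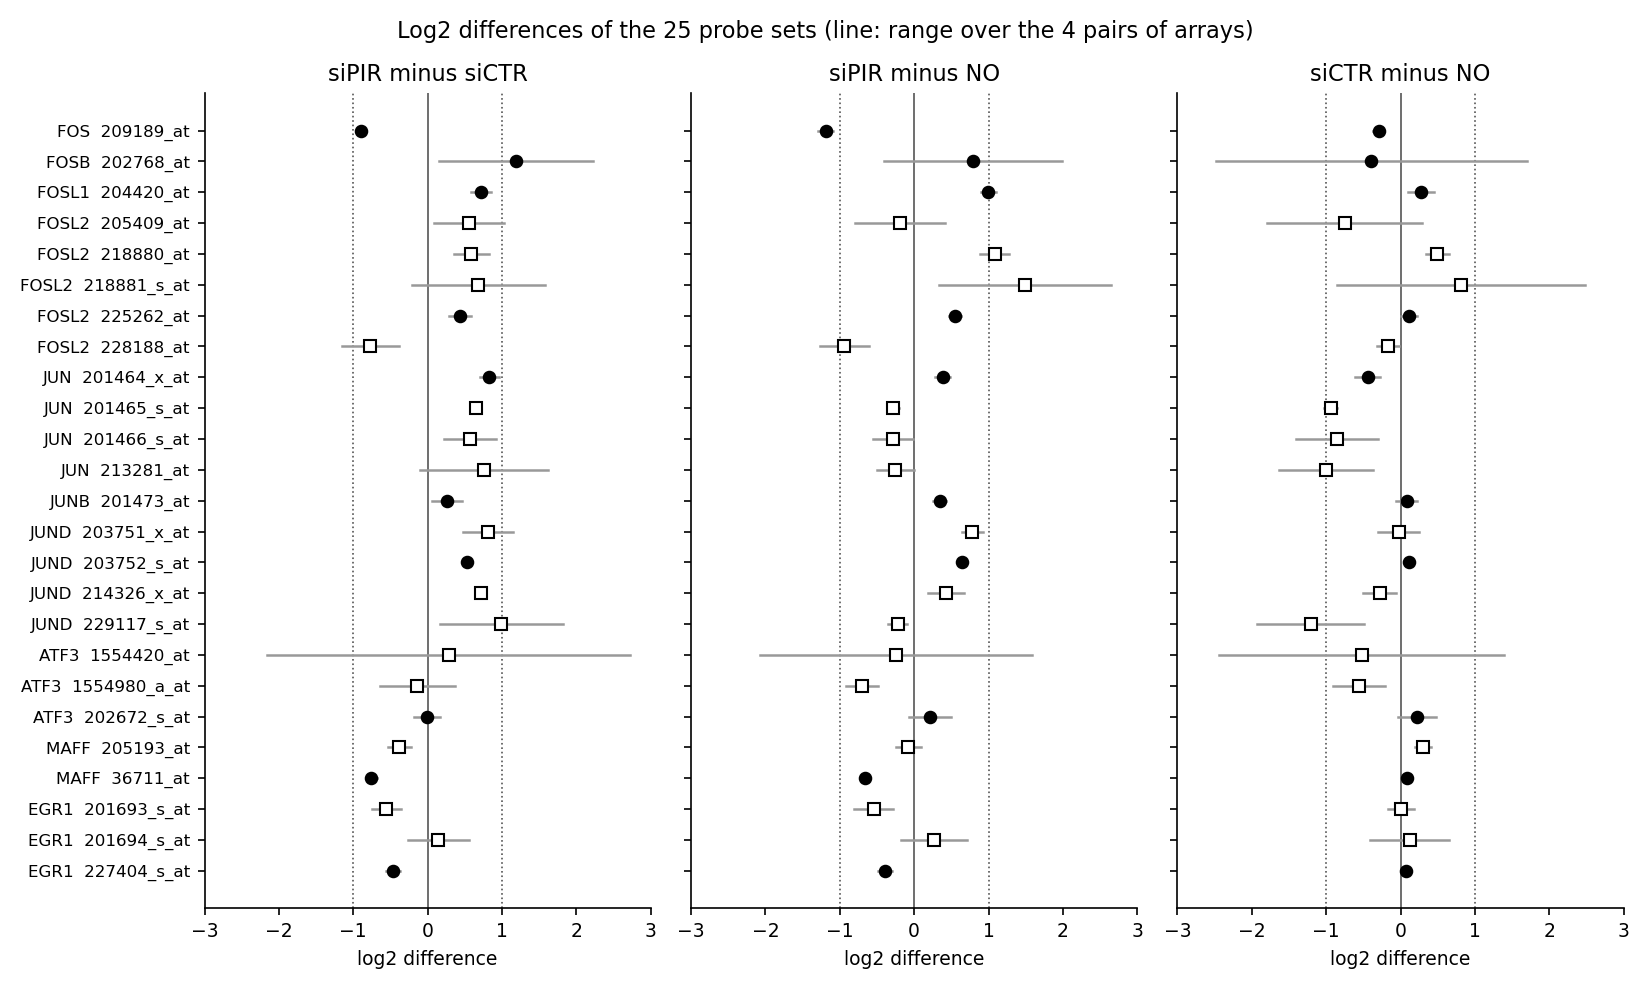
Log2 differences of all 25 probe sets (horizontal axes, dotted lines at 2-fold) for siPIR minus siCTR, siPIR minus NO and siCTR minus NO. Filled circles are the probe set that represents a gene, open squares the others, and grey lines the range over the 4 pairs of arrays. JUN probe sets lie between 0.57 and 0.83 in the first panel and between -0.29 and 0.39 in the second, and FOSB has wide ranges in all panels.

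Between the control pools no member was called, beside 0.998% of measured genes higher in siCTR and 2.37% lower. The largest member difference was that of JUN at -0.44, followed in size by FOSB at -0.39, whose arrays overlapped. By probe set, 213281_at of JUN (-1.01, from -1.64 to -0.37 over array pairs) was called lower in siCTR, beside 2.85% of measured probe sets (1.11% were higher). Its siCTR arrays lay far apart (31.3 and 81.5, against 107.0 and 108.9 in NO). As siCTR was its only pool below 70.2, siCTR had to be lowest. At 1.5-fold no member was called either (2.78% of genes higher, 5.28% lower), and at any size the arrays of 5 members were apart on the higher side and of 2 on the lower, beside 28.3% and 25.0%. FOS, FOSL1, FOSL2 and JUND were ordered siPIR, siCTR, NO in one direction or the other, so their differences from NO were larger than those from siCTR, while JUN, MAFF and EGR1 differed more from siCTR than from NO.

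**Figure D3:**
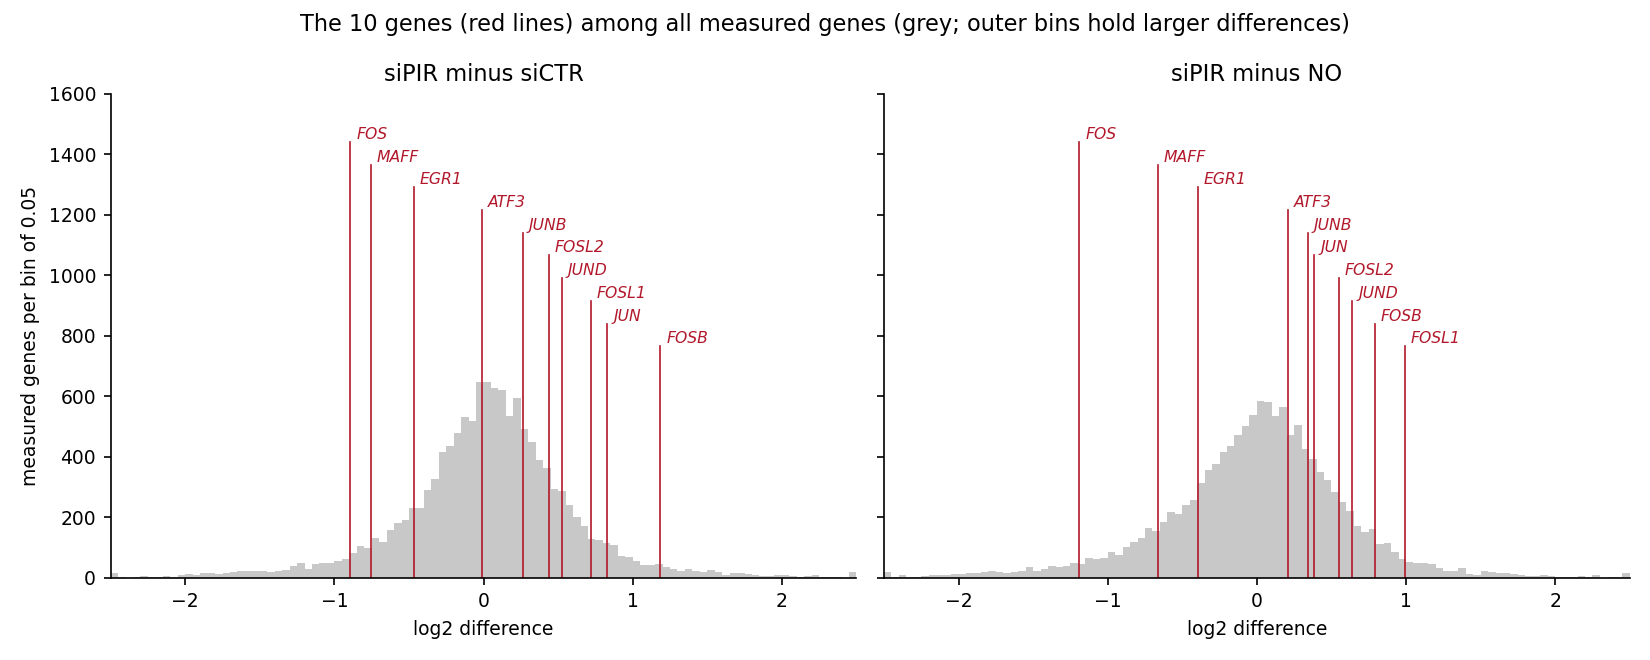
Histograms of the log2 differences of all 12922 measured genes (grey, number of genes per bin of 0.05) for siPIR minus siCTR and siPIR minus NO, with the 10 genes as labelled red lines whose height carries no value. FOS is the lowest member in both panels (-0.89 and -1.19). FOSL1 (0.72 and 0.99) lies above 91.4% and 96.1% of measured genes, and FOSB and JUN lie higher than FOSL1 in the first panel. Most members fall between -1 and 1.

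The gene of this set farthest from both controls by its smaller difference was FOS. The 5 bright genes closest to FOS over the 3 pools, by Euclidean distance of centred log2 pool means, were MAGOHB (0.025), HPS5 (0.038), PPARGC1A (0.044), PRKAR2A (0.047) and KLHL24 (0.047). Their differences were -0.93 to -0.83 from siCTR and -1.23 to -1.12 from NO. With 3 pools such likeness is a description of few points.

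Further lists place the members among their partners, relatives, upstream factors and targets. Beside their counts stand the shares of all measured genes called against both controls, 1.51% higher and 3.17% lower, and the medians of all measured genes, 0.05 for siPIR minus siCTR and 0.03 for siPIR minus NO. Of 10 measured AP-1 dimer partners and relatives, MAF was called higher and ATF2 lower than both controls, and the other 8 were not called. Their list had a median of 0.19 for siPIR minus siCTR and 0.22 for siPIR minus NO. MAF, a large MAF factor, had signals of 212.7 and 254.9 in siPIR, 59.4 and 108.2 in siCTR, and 93.1 and 56.8 in NO, and differed by 1.47 (0.94 to 2.01 over array pairs) and 1.61. Averaging all its probe sets, or leaving out those with the _s_at suffix, took MAF out of the measured genes and so ended its call. ATF2, a JUN partner activated by stress kinases, had signals of 891 and 778 in siPIR, 2220 and 1823 in siCTR, and 2753 and 2722 in NO. It differed by -1.27 (-1.51 to -1.03) and -1.71, but another measured probe set of ATF2 gave -0.11 and its mean over probe sets -0.47 and -0.85. Not called were BATF2 (0.62 and 0.82), the small MAF gene MAFG (0.39 and 0.23) and NRL (0.25 and 0.21), and another probe set of MAFG differed from siCTR by 2.15. NRL was measured only through siPIR and so had to be higher there. As the mean over probe sets MAFG was called against both controls (1.27 and 1.48).

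Of 25 measured other immediate early genes, PPP1R15A, which directs a phosphatase to eIF2, was called higher than both controls, 0 were lower and 24 were not called. The medians were 0.21 against siCTR and 0.29 against NO. PPP1R15A gave 2639 and 2416 in siPIR against 1215 and 1263 in siCTR and 1196 and 1178 in NO, a difference of 1.02 and 1.09. It was just under 2-fold from siCTR without siPIR replicate 1 (0.96) or without siCTR replicate 1 (0.996). The dim genes EGR4 (0.80 and 1.21) and NR4A3 (0.84 and 1.10) were called against NO alone. Like FOSB, both were measured only through siPIR and so had to be higher there. Both fell short without NO replicate 2 (0.85 and 0.70), while NR4A3 passed 2-fold against siCTR without siCTR replicate 2 (1.38). The small GTPase gene RHOB (0.998 and 0.86), the nuclear receptor gene NR4A2 (0.72 and 0.85) and ZFP36, which shortens the life of AU-rich mRNAs (0.70 and 0.76), were not called. The measured probe sets of RHOB ran from 0.86 to 0.998 from siCTR, while the mean over all 5, unmeasured ones included, was 0.06.

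Of 17 measured upstream kinases and factors, none was called against either control, and the medians were -0.22 and -0.11. The transcripts of the kinases that activate ERK, MAP2K1 (0.61 and 0.81) and MAP2K2 (0.64 and 0.72), were higher by less than 2-fold, and that of the serum response co-activator MRTFB was lower (-0.75 and -0.68). These are transcript levels and say nothing of kinase activity.

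Of 14 measured AP-1 target genes, 2 were called higher than both controls, 0 lower and 12 not called. The list's median was 0.42 for siPIR minus siCTR and 0.48 for siPIR minus NO. MMP1, the interstitial collagenase, gave 5236 and 5509 in siPIR, 1328 and 1428 in siCTR, and 1135 and 1267 in NO, a difference of 1.96 (1.87 to 2.05) and 2.16 (2.04 to 2.27). PLAUR, the urokinase receptor, gave 3046 and 3043, 1265 and 1236, and 802 and 800, a difference of 1.28 and 1.92, but its probe set without an _s_at or _x_at suffix differed by only 0.61 and 0.43. The chemokine gene CCL2 was called against siCTR alone (1.42 and 0.40). It was also called lower in siCTR than in NO (-1.01, from -1.32 to -0.71), and as it was measured only through siPIR it had to be highest there. Against NO alone, CXCL8 (0.82 and 1.35) and VEGFA (0.79 and 1.19) were called higher and EZR, the membrane linker ezrin (-0.69 and -1.10), lower. As the mean over probe sets VEGFA was called against both controls (1.24 and 1.57) and EZR was no longer called (-0.80 from NO). Not called were LIF (0.60 and 0.71), CCND1 (0.43 and 0.55) and TIMP1 (0.41 and 0.61). The count of targets called higher was 4 without siPIR replicate 2, when MMP3 and IL11 joined. The brightest probe sets of both were below the measured range with all arrays. MMP3 gave 76.6 on the remaining siPIR array and 5.8 to 51.1 on the control arrays. It was thus measured only through siPIR and had to be higher there. Another probe set of IL11 was measured with all arrays, likewise only through siPIR. MMP1, PLAUR, CCL2, CXCL8 and VEGFA were known to differ in these pools when the list was drawn up. Neither their calls nor the list's median, which includes them, is therefore independent support of a direction.

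**Figure D4:**
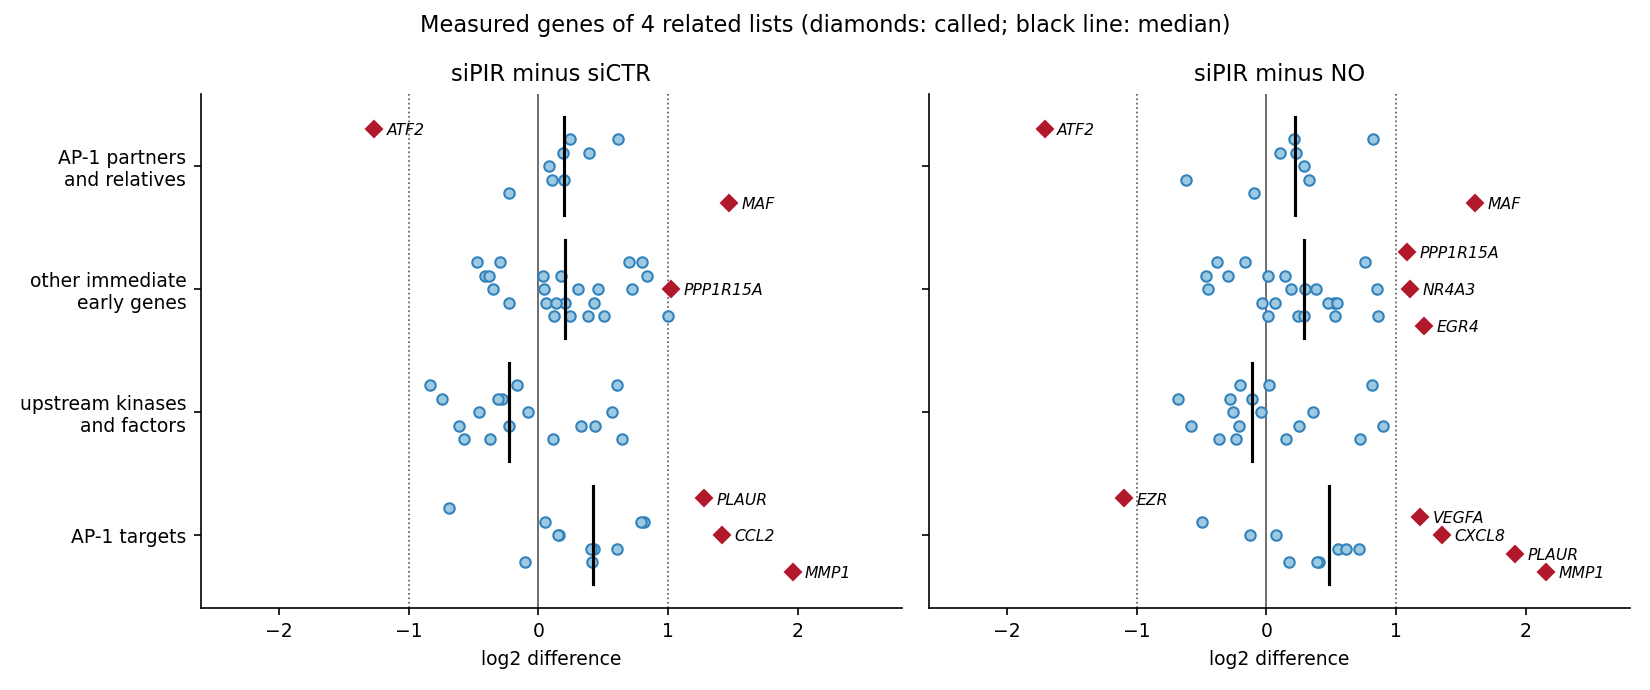
Log2 differences (horizontal axes, dotted lines at 2-fold) of the measured genes of 4 related lists for siPIR minus siCTR and siPIR minus NO. Each point is a gene, red diamonds are genes called in that comparison, black lines are list medians, and vertical scatter within a list carries no value. MMP1 and PLAUR among the targets and MAF and ATF2 among the AP-1 relatives lie beyond 2-fold in both panels, and no upstream kinase or factor does.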

How the data were processed

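Total RNA of WM-266.4 cells was measured on 6 arrays (3 pools, 2 arrays each). The authors deposited 1 linear intensity per probe set and array. The software was GCOS, per the submitters' processing notes, with no version or settings given in the sources used here. The mean trimmed by 2% at each end was 500.1 on every array, which hides any shift common to all transcripts. All 6 columns were matched to samples. The annotation table gave a single gene for 41097 of 54675 probe sets, several for 1801 and had no entry for 11777. Symbols were checked through Entrez identifiers against a RefSeq table of GRCh38.p14 (99.87% matched, 0 changed).

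Arrays of a pool were averaged on the log2 scale, and pools were compared by the rule given above, with n of 1 per group and no test. The number of arrays limits the precision. No detection calls were used. The rule was tested on simulated data, in which 200 genes were changed by more than any member differed here. That test says nothing of smaller differences. The members, lists and naming rule were chosen with earlier results of these data known. Named were PIR, all members, and from each list the called genes (up to 5 in each direction), up to 4 called against 1 control and up to 3 not called with the largest smaller difference. List members without a probe set of their own were not analysed here. Alternatives changed the added constant, filter, scaling, choice of probe set, fold size and arrays. Python 3.11.15, pandas 2.3.3 and numpy 2.4.6 were used.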

Additional observations from a re-analysis of the deposited data

How the results depend on the processing

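No paired analysis was possible because the results come from no test, the arrays of a pool being repeat hybridisations. All 10 members kept the sign of their difference from siCTR under every alternative that gave a value except ATF3 (the 75th percentile filter gave none for FOS, FOSB, FOSL2 and ATF3, and leaving out _x_at and _s_at probe sets none for JUND and EGR1), and against NO all except ATF3, JUN and FOSB did. The median difference of the members from siCTR was 0.24 to 0.42 with an array left out. The median from NO was 0.12 as the mean over probe sets and 0.046 without _x_at and _s_at probe sets, and that of siCTR from NO was -0.11 under each of these. With an array left out, 0 to 1 members were called higher than siCTR, 0 to 2 higher than NO, 0 to 1 higher than both and 0 to 1 lower in siCTR than in NO. At 1.5-fold, 3 members were called higher and 2 lower than siCTR, 2 and 2 against NO, and 1 and 2 against both. With the filter at the 75th percentile, 0 members were called higher than siCTR and 0 lower than NO. At 4 times the added constant 0 were higher than siCTR, under quantile normalization 1 (FOSL1) was higher than NO, and without _x_at and _s_at probe sets 1 (JUN) was lower in siCTR than in NO. That JUN call rests on the dim probe set 213281_at, whose siCTR pool was below the measured range and so had to be lowest.

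For calls against both controls, the 1.5-fold size gave 2 AP-1 relatives higher, 6 other immediate early genes higher, 2 upstream genes higher and 1 lower, and 5 targets higher and 1 lower, beside 6.42% of all measured genes higher and 7.55% lower. AP-1 relatives called higher numbered 0 with the filter at the 75th percentile and 0 without _x_at and _s_at probe sets. As the mean over probe sets, 0 relatives and 1 upstream gene (RPS6KA5) were lower, and the 1 relative called higher was MAFG in place of MAF. Without a filter 1 immediate early gene (ARC) was lower. With an array left out, 0 to 2 immediate early genes and 2 to 4 targets were higher. Leaving out an array makes the overlap condition easier to meet.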
